A study of Mus musculus with 19 samples.

Results

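Transcripts of 9 genes of glucose uptake and glycolysis were followed in mice that model fibrolamellar carcinoma. This liver cancer is driven by a fusion gene that joins the start of the chaperone DNAJB1 to PRKACA, which encodes a catalytic subunit of protein kinase A. The 9 genes were chosen by symbol and comprised the glucose transporters Slc2a1 and Slc2a2 and the enzymes Hk2, Pfkl, Aldoa, Pgk1, Eno1, Pkm and Ldha. Of these, 8 were among the 13549 genes of the embryo table, which has no row for Eno1, and all 9 were among the 17606 genes of the tumour files. The first experiment compared livers of embryos at day 18.5 of gestation from 5 controls and 4 embryos with a DNAJB1-PRKACA-GFP cDNA in the Rosa26 locus, released from a stop by Cre under the albumin promoter. The labels do not say whether the controls carried the Cre or the cDNA alone. The second compared tumours of FL8 cells, a single line of these models, grown in gelatin capsules under the skin of immunodeficient NSG mice. Once the mean tumour size was 75 mm3, mice received the methocel carrier (5 vehicle tumours) or 75 mg/kg of palbociclib by gavage (5 tumours) for 3 days, followed by 4 days without treatment. Palbociclib blocks CDK4 and CDK6, kinases that drive entry into the cell cycle. Since each gene was measured in whole tissue, fewer cells of a type and less RNA per cell cannot be told apart. Nothing in the labels says that samples of a group came from separate litters or cultures, so p-values measure the spread between these samples only.

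Glucose enters a cell through a transporter, is phosphorylated by a hexokinase, and is split and oxidised to pyruvate, which lactate dehydrogenase can reduce to lactate. Adult hepatocytes are known for their own set of isoforms, of which the low-affinity transporter Slc2a2 (GLUT2) and the liver pyruvate kinase Pklr are examples. Proliferating and fetal cells are known for Slc2a1 (GLUT1), Hk2, Aldoa and Pkm. Among the 9 genes, Slc2a2 and Pfkl, the liver subunit of phosphofructokinase, are the liver forms, and each was set against a counterpart of the same step.

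Library depth was 7.66 to 23.1 M (M, 1000000) counts in the control embryos, 13.5 to 45.6 M in the fusion embryos, 2.96 to 33.9 M recovered reads in the vehicle tumours and 24.9 to 43.1 M in the palbociclib tumours. Prkaca, which the fusion cDNA can add to, was 36.3 to 50.5 CPM (counts scaled to a library total of 1000000) in the controls and 52.0 to 114 CPM in the fusion embryos. Albumin was at 16348 CPM or more in each of the 19 libraries, so a hepatocyte transcriptome was present in embryos and tumours alike. A pair of features of the libraries bears on the values below. In the embryos, controls 1 and 2 and fusion embryos 8 and 9 gave 9.72 to 10.1% of their counts to ribosomal protein genes and the other 5 libraries 6.18 to 7.87%, and within the latter set Xist marked both fusion embryos as female and none of the 3 controls. Some cell marker sums also differed between the high and low sets without overlap. Hepatocyte markers summed to 178109 to 196758 against 205493 to 225618 CPM, and erythroid markers to 5086 to 6356 against 3615 to 4854 CPM. Fibroblast sums were 200.1 to 254 against 268 to 427 CPM and endothelial sums 177 to 190 against 196 to 263 CPM. The other marker sums overlapped. In the tumours, 46.6% of the reads of vehicle 1 were mitochondrial, against 1.24 to 6.47% in the rest, and vehicle 5 was the shallowest library.

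Hk2 and Pgk1 are the members that changed in the embryos, and Slc2a1 and Ldha are shown beside them as members that were not called, Ldha because its first window held the most matches of any member, so that the DNA around the 4 starts can be compared. The windows are RefSeq promoters of build GRCm38.p6, from 250 bases before to 50 bases after the annotated start, on the gene's strand. Capitals mark TGACG or its complement CGTCA, the core of the cAMP response element to which CREB binds downstream of protein kinase A, and ACGTG or CACGT, a core found in sites of hypoxia-inducible factors.
Hk2: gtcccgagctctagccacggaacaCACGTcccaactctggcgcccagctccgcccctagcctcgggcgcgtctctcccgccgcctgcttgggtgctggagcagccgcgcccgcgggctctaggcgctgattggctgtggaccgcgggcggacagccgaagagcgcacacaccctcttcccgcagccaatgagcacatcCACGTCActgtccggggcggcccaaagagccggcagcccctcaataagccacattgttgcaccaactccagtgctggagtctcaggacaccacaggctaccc
Pgk1: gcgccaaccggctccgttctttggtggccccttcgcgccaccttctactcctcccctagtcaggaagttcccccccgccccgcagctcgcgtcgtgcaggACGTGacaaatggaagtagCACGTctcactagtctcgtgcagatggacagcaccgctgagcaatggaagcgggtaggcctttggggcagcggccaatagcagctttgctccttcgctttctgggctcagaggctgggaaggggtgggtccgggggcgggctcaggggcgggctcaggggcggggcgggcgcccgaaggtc
Slc2a1: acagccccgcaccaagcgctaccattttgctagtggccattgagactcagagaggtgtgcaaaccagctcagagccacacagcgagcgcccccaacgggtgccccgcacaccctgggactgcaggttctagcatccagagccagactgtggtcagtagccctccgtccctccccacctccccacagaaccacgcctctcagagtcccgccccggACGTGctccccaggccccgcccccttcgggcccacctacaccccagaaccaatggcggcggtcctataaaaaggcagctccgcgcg
Ldha: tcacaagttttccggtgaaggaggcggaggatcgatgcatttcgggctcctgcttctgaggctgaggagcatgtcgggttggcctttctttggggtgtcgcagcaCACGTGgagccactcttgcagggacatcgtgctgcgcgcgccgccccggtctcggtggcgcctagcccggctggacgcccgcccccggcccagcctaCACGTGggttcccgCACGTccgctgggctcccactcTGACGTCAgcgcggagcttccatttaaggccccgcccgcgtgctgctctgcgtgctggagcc
The Hk2 window lies at chr6:82774405-82774704 on the minus strand, and on the plus strand the Pgk1 window lies at chrX:106186850-106187149, the Slc2a1 window at chr4:119108495-119108794 and the first Ldha window at chr7:46845554-46845853. The Hk2 window held 1 CGTCA, which overlapped with a CACGT, and 2 ACGTG or CACGT in all. The Pgk1 window held 2 of the latter and the Slc2a1 window 1, and neither held TGACG or CGTCA. The first Ldha window held 2 TGACG or CGTCA, which overlapped in 1 TGACGTCA, and 5 ACGTG or CACGT. Of these 5, 4 came from 2 CACGTG, each of which holds both forms. A second annotated start of Ldha had 1 TGACG or CGTCA and 0 ACGTG or CACGT. Of the windows of the other members, those of Slc2a2, Pfkl and Eno1 held neither motif, 2 of the 3 of Aldoa, which overlap each other, held 1 ACGTG or CACGT, and of the pair of Pkm windows 1 held a TGACG or CGTCA and the other 2 ACGTG or CACGT. Matches thus lay in windows of called members and of members not called, and their relation to the calls was not tested. On either strand, the first motif was in 20.8% and the second in 19.6% of the 32851 promoter windows of the same length, so each is common. Among the members, the first was in at least 1 window of Hk2, Pkm and Ldha. The second was in at least 1 window of Slc2a1, Hk2, Aldoa, Pgk1, Pkm and Ldha. Whether the members exceed these shares was not tested. No peak or binding measurement bears on these matches.

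In fusion livers, 2 of the 8 members measured rose, the hexokinase Hk2 and the phosphoglycerate kinase Pgk1, and none fell. Hk2 was 1.93 times and Pgk1 1.57 times its control level, while the transporter Slc2a1 was at 1.08, the pyruvate kinase Pkm at 0.912 and the lactate dehydrogenase Ldha at 0.991 times theirs, without a call. Over all 13316 genes tested with edgeR's quasi-likelihood test, 12.8% were called at an adjusted p under 0.05 (797 higher, 907 lower). With the library set of high or low ribosomal share as a covariate, 4345 genes (32.6%) and 3 members were called, and with 1 library left out 969 to 1581 genes. In 16.5% the groups did not overlap, which held for the same 2 of 8 members. The members' log2 fold changes ranged from -0.53 to 0.95, with a median of 0.05 against -0.01 over all genes tested.

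Hk2, which phosphorylates glucose at the outer mitochondrial membrane and is low in adult hepatocytes, lies at chr6:82725025-82774454. Its level was 14.6, 13.8, 10.3, 14.8 and 11.7 CPM in controls 1 to 5 and 24.5, 29.96, 24.0 and 22.0 CPM in fusion embryos 6 to 9. Every fusion library lay above every control. The log2 fold change was 0.95 ± 0.14 (SE) with an adjusted p of 0.0022 in edgeR, and it was 0.70 within the libraries of high ribosomal share and 1.14 within those of low share. The call was kept in all 9 fits that each left out 1 library.

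Pgk1, on the X chromosome at chrX:106187100-106203699, makes the first ATP of the pathway. The controls had 157, 158, 175, 207 and 219 CPM and the fusion embryos 296, 378, 241 and 233 CPM. The groups did not overlap, and the gap between control 5 and fusion embryo 9, the single male of its group, was small. The log2 fold change was 0.65 ± 0.17 (SE) with an adjusted p of 0.0318 in edgeR, and it was 0.60 and 0.75 within the sets of high and low ribosomal share. The call did not hold with sex as a covariate (0.68, adjusted p = 0.0578) or when control 1, 2 or 3 or fusion embryo 6 or 7 was left out (0.49 to 0.65, adjusted p 0.0601 to 0.0915).

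The transporters did not pass the test. Slc2a1, the transporter of fetal liver and red cells, was 185, 179, 124, 163 and 191 CPM in the controls and 193, 165, 202 and 165 CPM in the fusion embryos. These ranges overlap, and the log2 fold change was 0.10 ± 0.15 with an adjusted p of 0.68 in edgeR. Slc2a2, the bidirectional transporter of hepatocytes, was 52.7, 63.6, 94.7, 81.9 and 79.4 CPM in the controls and 48.4, 41.0, 51.0 and 66.4 CPM in the fusion embryos. Its log2 fold change was -0.53 ± 0.19 with an adjusted p of 0.0876 in edgeR. In the set of low ribosomal share the value was -0.93 (adjusted p = 0.00123) and in the set of high share 0.03 (adjusted p = 0.911), and the low-share set also separates males from females. The difference between the sets was not tested. With the set as a covariate Slc2a2 was called (-0.50, adjusted p = 0.0393 in edgeR), as it was without control 1 (adjusted p = 0.0486) or fusion embryo 9 (adjusted p = 0.0465), and with sex as a covariate it was not (-0.33, adjusted p = 0.12).

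Of the remaining members, Pfkl was 387, 329, 219, 197 and 235 CPM in the controls and 193, 267, 194 and 229 CPM in the fusion embryos (log2 fold change -0.31 ± 0.21, adjusted p = 0.361 in edgeR). Controls 1 and 2 were the highest, and within the high-share set the value was -0.75 (adjusted p = 0.011), against 0.08 in the low-share set. Aldoa, the aldolase of muscle and of most dividing cells, was 206 to 313 CPM in the controls, while fusion embryos 6 and 7 had 427 and 458 CPM and embryos 8 and 9 had 216 and 260 CPM. The log2 fold change was 0.32 ± 0.23 (adjusted p = 0.379 in edgeR), made of 0.61 in the low-share and -0.04 in the high-share set. Pkm was 245 to 371 CPM against 237 to 319 CPM (log2 fold change -0.13, adjusted p = 0.609 in edgeR). Ldha, which turns pyruvate into lactate, was the most abundant of the 8 with 2865 to 3812 CPM in the controls and 2701 to 3984 CPM in the fusion embryos, a log2 fold change of -0.01 (adjusted p = 0.972 in edgeR).

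**Figure D1:**
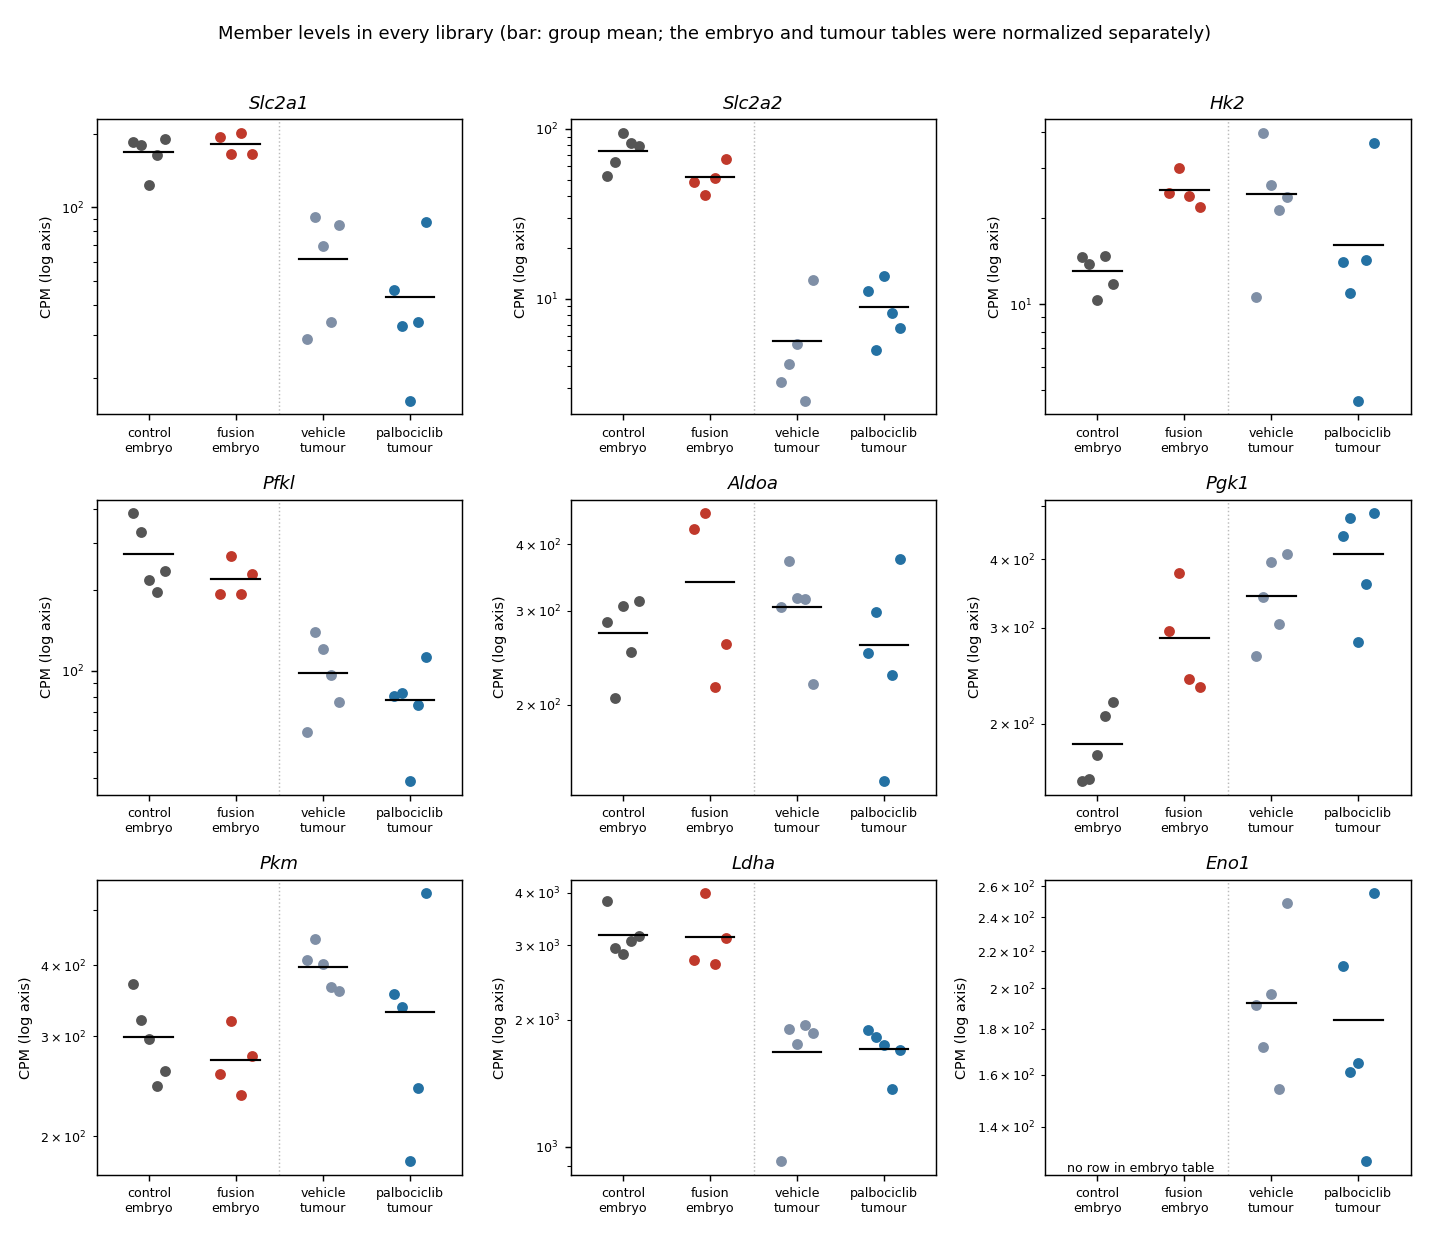
Level of each member in CPM on a log axis (vertical) in the 4 groups (horizontal), 1 point per library, with the group mean as a bar. Hk2 and Pgk1 lie apart in control and fusion embryos, the other 6 members of the embryo table overlap, and all 9 overlap between vehicle and palbociclib tumours.

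Markers of other cell types and of the cell cycle moved with the embryo groups to some extent. The summed level of 9 macrophage markers was 1322 to 1528 CPM in the controls and 1137 to 1238 CPM in the fusion embryos, and that of 10 cell cycle genes was 1496 to 2027 against 2063 to 2376 CPM, neither with overlap. None of the 9 macrophage markers and 3 of the 10 cell cycle genes, all 3 higher, were called. Of 7 fibroblast markers, 6 lay below 0 and Col1a1 (log2 fold change -0.80, adjusted p = 0.0227 in edgeR) and Col1a2 (-0.57, adjusted p = 0.0467 in edgeR) fell, while their sum overlapped (241 to 427 and 200.1 to 308 CPM). Of the 14 erythroid markers, 9 are in the table, which has no row for the globins, and their sum overlapped (3615 to 6356 and 4151 to 5405 CPM). Of 10 hepatocyte markers, 8 lay below 0, with a median log2 fold change of -0.31. Of these 10, 1 was called higher and 1 lower (20%, against 12.8% of all genes). Their sum overlapped (178109 to 217716 and 188108 to 225618 CPM). Of 6 neutrophil markers 5 lay below 0 and of 7 endothelial markers 5 lay above 0, none called and with overlapping sums. None of the markers in the table was at 0 in all libraries. The part of these cells in the Hk2 and Pgk1 values was not tested.

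Ranked by level per kilobase of transcript (CPM per kb), the order of the members was nearly the same in both embryo groups. In the controls, Ldha stood alone at 1747 ± 207 CPM per kb (SD, n = 5), followed by Aldoa at 176 ± 28.6, Pkm at 123 ± 20.6, Pgk1 at 100.4 ± 15.5, Pfkl at 73.3 ± 21.8, Slc2a1 at 51.7 ± 8.32, Slc2a2 at 13.4 ± 2.95 and Hk2 at 2.37 ± 0.351. From Aldoa down to Slc2a1, neighbours in this order overlapped in their ranges. In the fusion embryos Pgk1 (157 ± 36.5, n = 4) stood above Pkm (112 ± 14.4), though their ranges still overlapped, and Hk2 remained the lowest member at 4.55 ± 0.62. Hk1, a hexokinase of red cells among others, stood above Hk2, at 28.5 ± 5.31 CPM per kb in the controls and 32.5 ± 11.9 in the fusion embryos, with no call (log2 fold change 0.19, adjusted p = 0.633 in edgeR).

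Setting each liver isoform against its counterpart in the same library takes out the scaling between libraries. Of the 4 ratios given here for the embryos, 2 differed between the groups without overlap, and both sat at the smallest p the design allows, 0.0159 in a two-sided exact permutation test (adjusted p = 0.0413 over 13 ratio tests). Per length, Pfkl exceeded Pfkp, the platelet subunit of phosphofructokinase, 21.1 to 41.7 times in the controls and 12.4 to 20.2 times in the fusion embryos, a difference of -0.81 on the log2 scale. Over all libraries Pfkp was called higher, and Pfkl lay lower without a call. Within the high-share set Pfkl was called lower (-0.75, adjusted p = 0.011 in edgeR) and Pfkp was not called (adjusted p = 0.126 in edgeR). Ldha exceeded Ldhb, the subunit that favours lactate oxidation, 197 to 239 times in the controls and 75.7 to 105 times in the fusion embryos, a difference of 1.31 in the Ldhb to Ldha ratio. Here Ldhb was called higher and Ldha was not called. Both ratios kept their direction within each library set. Slc2a2 to Slc2a1 (-0.63, exact permutation p = 0.0794) and Pklr to Pkm (-0.02, exact permutation p = 0.968) did not pass. With a pseudocount of 3 in place of 0.5 both adjusted p-values became 0.0516, and with any 1 library left out they were 0.0743 to 0.0929, since the smaller design allows no lower p. Annotated transcripts of Pitrm1 contain 748 bases of the Pfkp transcript, so reads of those bases may be shared.

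**Figure D2:**
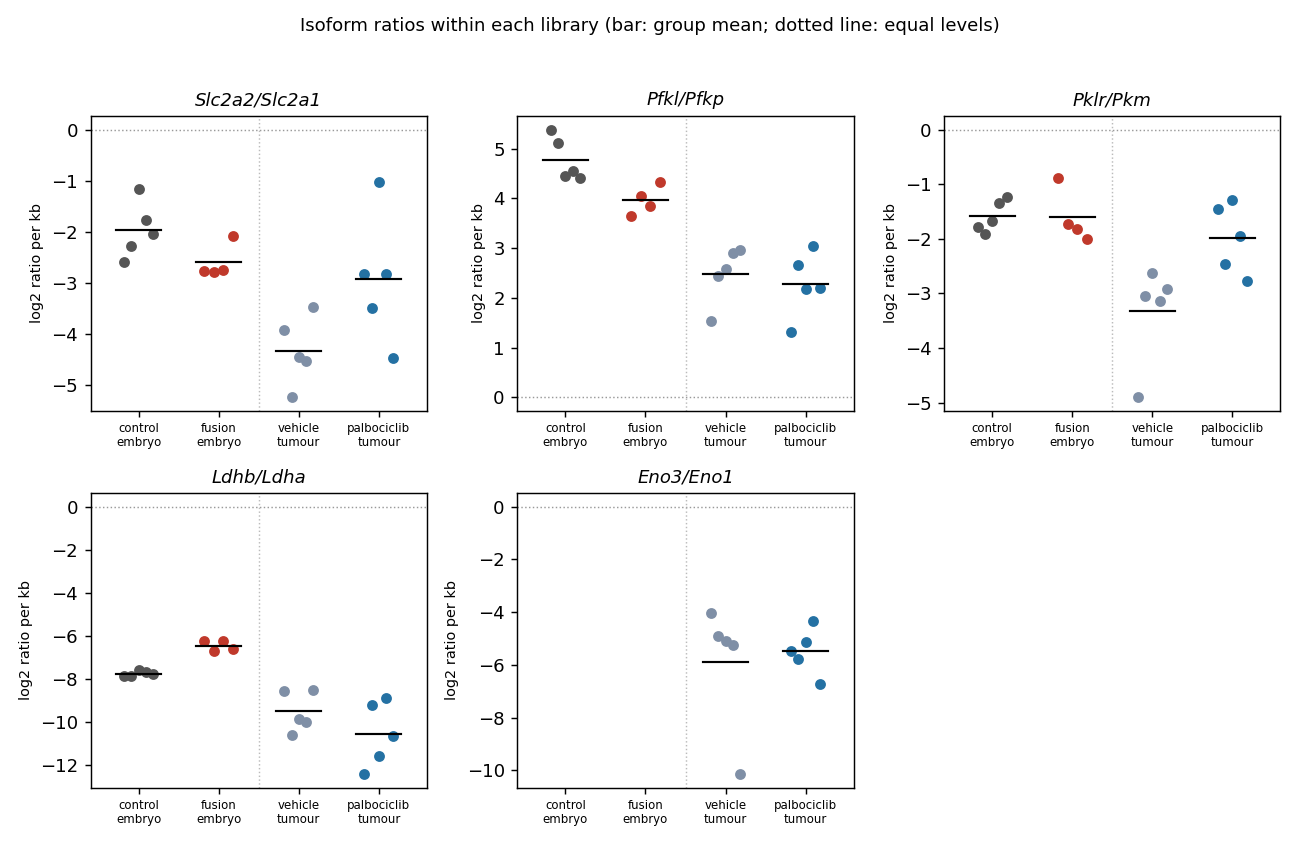
Log2 ratio of a pair of isoforms per kilobase (vertical) in every library of the 4 groups (horizontal), with the group mean as a bar and equal levels as a dotted line. Ldhb to Ldha and Pfkl to Pfkp do not overlap between control and fusion embryos, and Pklr to Pkm lies at a mean of -3.33 in the vehicle and -1.99 in the palbociclib tumours.

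Among 40 further genes of the pathway tested in the embryos, 3 rose and 8 fell (27.5%, against 12.8% of all genes). With the library set as a covariate 18 of 40 were called (45%, against 32.6% of all genes), and with 1 library left out 6 to 11. The list held transporters, enzymes and their regulators, and its median log2 fold change was -0.11. Pfkfb1, the liver enzyme that sets fructose 2,6-bisphosphate and is a substrate of protein kinase A, fell by 1.80 on the log2 scale. Pfkfb1 was 179 to 259 CPM in the controls and 34.3 to 95.05 CPM in the fusion embryos.

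Other pathway genes that fell were Gckr (log2 fold change -0.59), Aldoc (-1.15), the urate and fructose transporter Slc2a9 (-1.29), the pyruvate dehydrogenase kinases Pdk2 (-0.92) and Pdk4 (-0.73) and the muscle mutase Pgam2 (-1.58, at 3.98 CPM or less). Those that rose were Ldhb, from 8.92 to 11.4 CPM in the controls to 22.4 to 27.3 CPM in the fusion embryos (log2 fold change 1.29 ± 0.11, adjusted p = 7.8e-05 in edgeR), Pfkp (0.55, adjusted p = 0.0249 in edgeR) and Pfkfb2 (0.48, adjusted p = 0.0374 in edgeR). The calls of Pfkp and Pfkfb2 did not hold with sex as a covariate (adjusted p = 0.0674 and 0.0736) or within the high-share set (0.126 and 0.153), and were lost in 4 and 5 of the 9 fits that each left out 1 library. Those of Pgam2 and Pdk4 were lost in 6 and 8 of these fits. Among 10 regulators, Mlxipl, the carbohydrate response factor ChREBP that acts on Pklr and other genes of the pathway, fell by 1.39 on the log2 scale (29.1 to 48.4 CPM against 10.1 to 17.4 CPM, adjusted p = 0.00117 in edgeR), and Hif1a (0.35, adjusted p = 0.147 in edgeR) and Myc (0.38, adjusted p = 0.373 in edgeR) did not pass. Of 17 other known targets of hypoxia-inducible factors, 2 rose (Ankrd37, 1.22, and Egln1, 0.47), 1 fell (Ndrg1, -0.80) and 14 did not pass, so that 3 of 17 (17.6%) were called, against 12.8% of all genes. Within the high-share set Ankrd37 (0.68, adjusted p = 0.052 in edgeR) and Egln1 (0.44, adjusted p = 0.0601 in edgeR) were not called. Without fusion embryo 7 the calls of Ankrd37 (adjusted p = 0.0546 in edgeR) and Egln1 (0.0538) were lost, and without fusion embryo 8 those of Ankrd37 (0.0581) and Ndrg1 (0.0528).

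**Figure D3:**
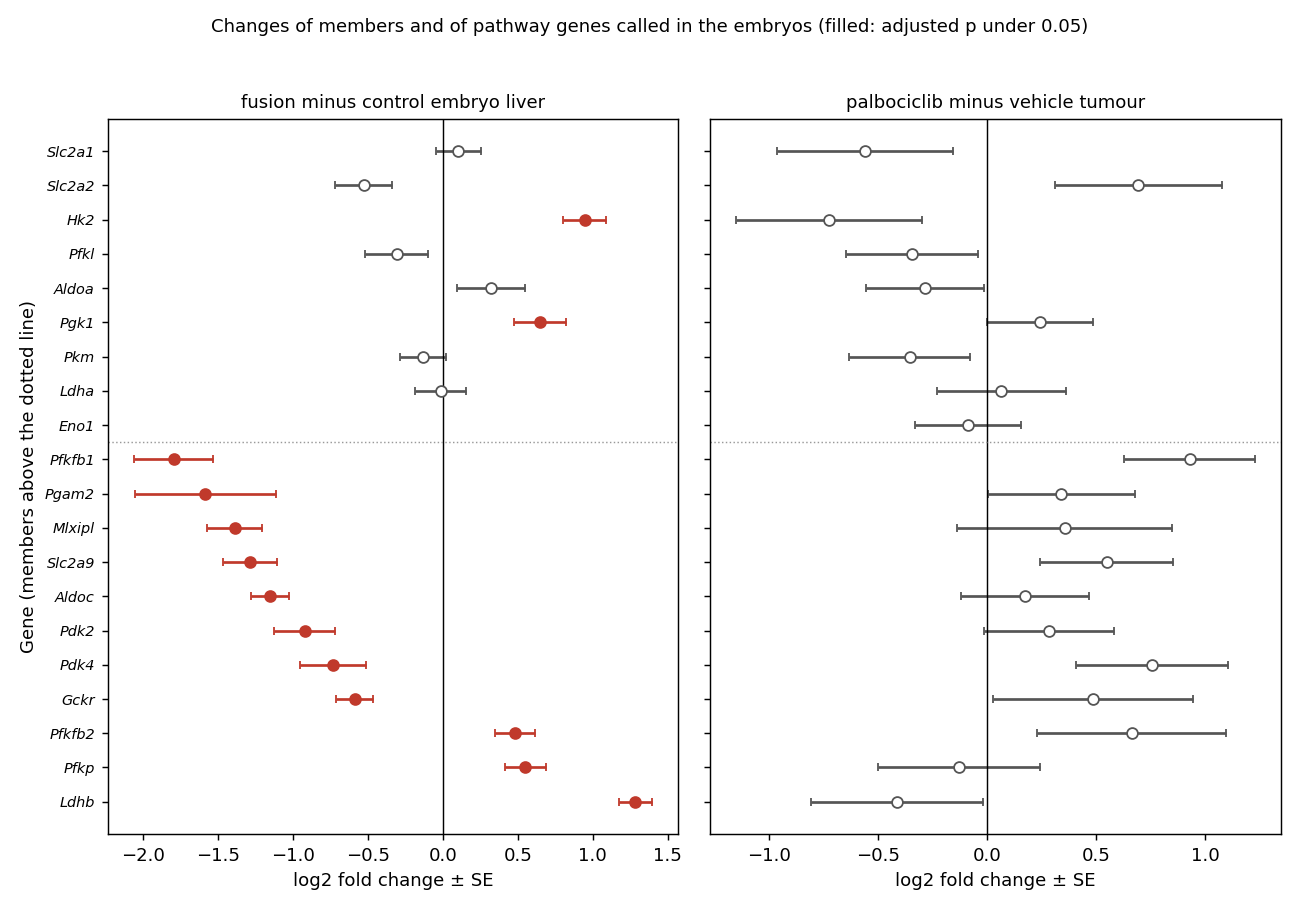
Log2 fold change with its SE (horizontal) of the members, above the dotted line, and of the pathway genes and regulators called in the embryos (vertical), for fusion against control livers on the left and palbociclib against vehicle tumours on the right. Filled points mark an adjusted p under 0.05, which 2 members and 11 other genes shown reached in the embryos and none in the tumours.

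Members with near-identical copies in the genome are uncertain, since it is not stated how reads shared between copies were counted. In GENCODE M21, 3 other genes share at least 95% identity over at least 500 bases with Eno1, 2 with Pgk1, 2 with Ldha and 1 with Pkm, and none with Slc2a1, Slc2a2, Hk2, Pfkl or Aldoa. Gapdh has 73. Eno1b, an intronless copy of Eno1, was the only row of the pair in the embryo table and varied widely, with 390, 118, 8, 4 and 1425 counts in the controls and 4730, 1788, 307 and 343 counts in the fusion embryos. Gapdh likewise was 308 to 625 CPM in the 4 libraries of high ribosomal share and 601 to 1787 CPM in the other 5. Within both sets the fusion embryos lay above the controls. At high share, controls 1 and 2 had 318 and 308 CPM and fusion embryos 8 and 9 had 625 and 566 CPM. At low share, controls 3 to 5 had 601, 691 and 751 CPM and fusion embryos 6 and 7 had 1787 and 1643 CPM. The log2 fold change of Gapdh was 1.11, without a call in edgeR, and the part of its copies was not tested. Ldhb has 1 near-identical copy.

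In the FL8 tumours, no member differed between palbociclib and vehicle. Of 12829 genes tested with limma on log2(CPM + 1), 0 passed (0.0%), 586 had an unadjusted p under 0.05 (478 higher, 108 lower), and in 0.935% the groups did not overlap. None of the 9 members had an unadjusted p under 0.05 or groups that did not overlap. On recovered reads edgeR called 0 genes and DESeq2 5. The members' log2 fold changes had a median of -0.29 against 0.14 over all genes, and 6 of 9 lay below 0.

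Of the upper steps, Hk2 and Slc2a1 lay lower and Slc2a2 higher with palbociclib on average, without a call. Hk2 was 10.6, 39.9, 26.1, 21.4 and 23.7 CPM in vehicle tumours 1 to 5 and 14.0, 10.95, 4.58, 14.3 and 36.6 CPM in palbociclib tumours 1 to 5 (log2 fold change -0.73 ± 0.43, adjusted p = 0.953 in limma). Palbociclib 3 was the lowest and palbociclib 5 among the highest, and the value was -0.39 without palbociclib 3 and -1.08 without palbociclib 5. Slc2a1 was 29.0, 91.6, 69.4, 34.0 and 84.9 CPM in the vehicle tumours and 45.8, 32.8, 16.2, 34.1 and 87.1 CPM in the palbociclib tumours (log2 fold change -0.56 ± 0.40, adjusted p = 0.953 in limma), and its value was -0.27 without palbociclib 3 and -0.86 without palbociclib 5. Slc2a2 had the opposite sign, with 3.25, 4.13, 5.39, 2.504 and 12.9 CPM against 11.1, 4.96, 13.6, 8.21 and 6.68 CPM (0.69 ± 0.38, adjusted p = 0.953 in limma), and ranged from 0.51 to 1.00 with 1 tumour left out.

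The other members were not called either. Pfkl was 59.1 to 140 CPM in the vehicle and 38.8 to 112 CPM in the palbociclib tumours, and Aldoa 219 to 372 against 144 to 375 CPM. Pgk1 was 266 to 410 against 282 to 486 CPM, Eno1 154 to 249 against 128 to 255 CPM, and Pkm 360 to 446 against 181 to 536 CPM. Ldha was 923 CPM in vehicle 1, 1754 to 1941 CPM in the other vehicle tumours and 1369 to 1889 CPM in the palbociclib tumours. Its log2 fold change of 0.06 became -0.14 without vehicle 1, and -0.09 with TMM factors. With TMM factors the differences of Hk2 and Slc2a1 were -0.87 and -0.71.

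The members also varied among tumours of the same group. Taking for each member its log2(CPM + 1) minus its mean over the 10 tumours, the median of the 9 members was lowest in palbociclib 3, at -0.92, and highest in palbociclib 5, at 0.46, where all 9 were above their means. Vehicle tumours ranged from -0.49 in vehicle 1 to 0.35 in vehicle 2. In vehicle 1, 46.6% of the reads were mitochondrial, which lowers the CPM of all its other genes. The deviations were not rescaled without these reads, so its low median cannot be read as lower members. In palbociclib 3, 7 of 9 members lay below their means, while Slc2a2, at its highest of the 10 tumours, and Ldha lay above. The summed level of the cell cycle genes was 113 to 246 CPM in the vehicle and 238 to 382 CPM in the palbociclib tumours, the highest in palbociclib 3. Of these 10 genes, 9 had a positive log2 fold change, as had 68.8% of all genes in this fit. Their median was 1.05, against 0.14 over all genes, and 6 had an unadjusted p under 0.05 in limma, without a call. The erythroid sum ranged from 1346 to 96724 CPM in the vehicle and from 1778 to 8502 CPM in the palbociclib tumours. The part of these genes in the member values was not tested.

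**Figure D4:**
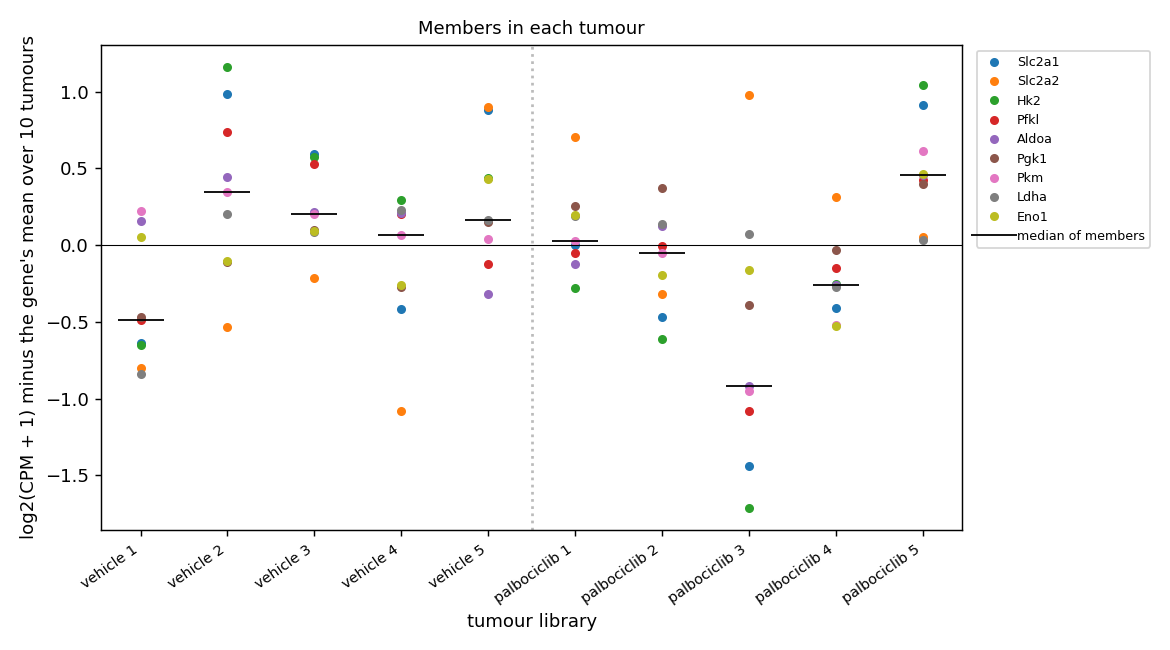
Deviation of each member from its own mean over the 10 tumours in log2(CPM + 1) (vertical) in each tumour library (horizontal), with the median of the 9 members as a bar. The median is -0.92 in palbociclib 3 and 0.46 in palbociclib 5, while the vehicle tumours lie between -0.49 and 0.35. The lowest of these, vehicle 1, had 46.6% mitochondrial reads, which lowers the CPM of its other genes.

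Of the 5 ratios given here for the tumours, Pklr to Pkm was higher with palbociclib, towards the liver form. It was 0.0334 to 0.161 in the vehicle and 0.146 to 0.407 in the palbociclib tumours, with overlap, a difference of 1.34 on the log2 scale (two-sided exact permutation p = 0.0159, adjusted p = 0.0413). Neither partner was called on its own (Pklr 0.97, Pkm -0.35, adjusted p = 0.953 for both in limma). The lowest ratio, 0.0334, was that of vehicle 1, which also stood apart in its marker sums. Its macrophage markers summed to 2352 CPM, against 113 to 429 CPM in the other tumours. Its hepatocyte markers summed to 40536.5 CPM, against 82327 to 128374 CPM in the other tumours. These CPM count mitochondrial reads, which were 46.6% in vehicle 1 and 1.24 to 6.47% in the others. That share lowers its hepatocyte sum, which was not rescaled, and does not enter the ratio. The part of macrophages and hepatocytes in the ratio was not tested. Annotated transcripts of Hcn3 contain 521 bases of the Pklr transcript, so reads of those bases may be shared.

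This call was close to the threshold. Without vehicle 1 the difference was 0.95, with an adjusted p of 0.0825 in the exact permutation test, and with a pseudocount of 3 the adjusted p was 0.0516. Over the 10 fits that each left out a tumour, the adjusted p ranged from 0.0413 to 0.0825, and 1 of 10 kept the call, that without palbociclib 5. Slc2a2 to Slc2a1 (1.40, exact permutation p = 0.0556), Pfkl to Pfkp (-0.20, exact permutation p = 0.571), Eno3 to Eno1 (0.40, exact permutation p = 0.897) and Ldhb to Ldha (-1.05, exact permutation p = 0.222) did not pass. Eno3 had 0 reads in vehicle 5, so the pseudocount sets that ratio, and with a pseudocount of 3 the difference was -0.10. Ldhb had 8 to 89 reads per tumour, so its ratio rests on few reads.

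Side by side, the liver form was lower against the counterpart chosen here in vehicle tumours than in embryonic livers for 3 pairs. No test was made, because the tables were made separately with different tools. The palbociclib tumours did not all lie on that side of the embryos at the transporter and pyruvate kinase steps. Slc2a1 exceeded Slc2a2 per length 3.90 times in control and 6.05 times in fusion embryos, and 20.03 times in vehicle and 7.61 times in palbociclib tumours. Palbociclib 3, at 2.04 times, lay below the embryo libraries (2.23 to 6.88 times) and the other palbociclib tumours above them. Pkm exceeded Pklr 3.01 and 3.05 times in the embryo groups, 10.1 times in vehicle and 3.97 times in palbociclib tumours, where the libraries ranged from 2.46 to 6.87 times, against 1.84 to 3.99 times in the embryos. Pfkl exceeded Pfkp 27.5 and 15.6 times in control and fusion embryos and 5.57 and 4.84 times in vehicle and palbociclib tumours, and no tumour (2.47 to 8.23 times) reached the lowest embryo (12.4 times). This holds for Pfkp only. Pfkm, a further subunit, was at 15.3, 16.9, 7.05 and 6.57 CPM per kb on average in these groups in the same order. Pfkp was lower in each, at 2.58, 3.78, 4.78 and 4.70 CPM per kb. A ratio of Pfkl to Pfkm was not made. Ldha was first in all 4 groups, at 923 ± 235 CPM per kb in vehicle and 938 ± 111 CPM per kb in palbociclib tumours (n = 5 each). Hk1 was at 1.51 ± 1.13 CPM per kb in the vehicle tumours, below Hk2 at 4.41 ± 1.91, with overlapping ranges.

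In the tumours, 38 of the other pathway genes were tested and none was called, with a median log2 fold change of 0.13. At an unadjusted p under 0.05, Pfkfb1 (0.93), Pklr (0.97) and Pdk4 (0.76) were higher and Bpgm, the enzyme that makes the haemoglobin ligand bisphosphoglycerate in red cells, was lower (-1.42). The 16 other hypoxia-inducible factor targets tested had a median of -0.39 and 12 of 16 below 0, without a call, while 68.8% of all genes lay above 0.

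As a description, the genes most like each member were sought over the 19 libraries after centring on the group means, among 6634 genes with at least 10 CPM on average in both tables. Slc2a1 was closest to Tnfaip2 (Pearson r = 0.88), Hk2 (0.86) and Ndrg1 (0.86), and Hk2 to Cchcr1, Slc2a1 and Smox (0.86, 0.86 and 0.84). These rest mainly on the tumours: for Slc2a1 and Ndrg1, r was 0.94 over the tumours and 0.07 over the embryos. Pfkl was closest to Smox (0.91), Aldoa to Coro1b (0.91), Pkm to Rgl2 (0.91), Pgk1 to Aldh2 (0.77) and Ldha to Hnrnpa2b1 (0.70). Ldha stood furthest from the other members, with r from 0.01 with Slc2a1 to 0.30 with Pgk1, and the libraries share depth and composition effects that such values include. Slc2a2 and Eno1 did not reach 10 CPM in both tables.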

How the data were processed

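RNA sequencing of 9 embryo livers and 10 tumours was used, with groups taken from the titles. For the embryos (poly-A RNA) the authors deposited unnormalized counts in 1 table, in which no gene had a summed count under 47. For the tumours the authors deposited CPM, and 100% of the values were whole multiples (within 0.01) of the value of 1 read, so that reads were recovered. The submitters' processing notes name mm10, STAR 2.5.1b and DESeq2 for the embryos, and mm10, cutadapt 2.10, HISAT2, featureCounts, DESeq2 and R 4.1.2 for the tumours, without roles. Strandedness and the treatment of shared reads are not given in the sources used here.

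Embryo counts were tested with edgeR 4.0.16 (quasi-likelihood, TMM, filterByExpr on the groups) under R 4.3.3, and tumours with limma 3.58.1 (trend) on log2(CPM + 1), leaving out genes whose mean was under 1 CPM. The pseudocount understates fold changes at low levels. The Benjamini-Hochberg adjustment ran over all genes tested, with a threshold of 0.05. Ratios used reads per kb with a pseudocount of 0.5, and two-sided exact permutation tests over samples adjusted over 13 tests, of which 9 are given. Some items of the lists and ratios are not reported here, though counts over lists include them. Length is that of the GENCODE M21 transcript with the longest coding sequence. It replaced a union of exons after values had been seen, and shifts levels and ratios, not their differences between groups. The filter was set to use groups alone after a first fit had been seen, so that covariate fits test the same genes, which left the embryo call count without covariates at 1704 and lowered slightly the one with the library set as a covariate. Copies were sought with blastn 2.17.0.

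The members, lists and tests were chosen with earlier results of these data known. Genes named are the members, the isoform pairs, the called genes of the lists (up to 6 per list and comparison by smallest p) and the 3 genes of most similar pattern, of which some are given. Pfkfb2, Pgam2, Pdk4, Bpgm, Hif1a, Myc, Hk1, Gapdh, Eno1b, the motifs and the promoters shown were picked after values were seen. Simulated data with 4-fold changes were used as a test: 198 of 200 changed genes were called among 205 calls in the embryo design (12556 genes), and 140 of 191 among 145 calls in the tumour design (12829 genes). A count of 3, the floor, was 0.0658 to 0.392 CPM in the embryos and 0.0695 to 1.01 CPM in the tumours, covering counting error only. Libraries of a group differed by more than sampling noise (chi-square over degrees of freedom of 12.6 or more), so each was counted as 1 replicate. Alternatives were other size factors, filters, pseudocounts and tests, covariates, library sets and leaving out libraries.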

Additional observations from a re-analysis of the deposited data

Results flagged for a closer look

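Among 34 groups of member values, 2 held a library far from the others, where chance gives about 1 in 20, or 1.7. Slc2a2 was 12.9 CPM in vehicle 5, the shallowest library, against 2.504 to 5.39 CPM in the other 4 vehicle tumours. Ldha was 923 CPM in vehicle 1, the library with 46.6% mitochondrial reads, against 1754 to 1941 CPM in the other 4.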

How the results depend on the processing

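Of the members, Hk2 kept its direction and call in the embryos under every alternative run. The count of embryo genes called was 4345 with the library set as a covariate, 2589 within the high-share and 2950 within the low-share set, and 969 to 1581 with 1 library left out. The count of members called was 1 with sex as a covariate, 4 within the low-share set and 1 to 3 with 1 library left out. The sign of some members turned. In the embryos Ldha was 0.0077 without a filter, 0.12 with voom, 0.15 within the low-share set, 0.073 without control 1, 0.0033 without control 5 and 0.055 and 0.056 without fusion embryos 6 and 8, Pfkl was 0.0069 with voom and 0.084 within the low-share set, Pkm 0.043 and 0.11 likewise, and within the high-share set Slc2a2 was 0.032 and Aldoa -0.037. In the tumours Ldha was -0.093 with TMM factors, -0.083 without mitochondrial genes, -0.088 with edgeR, -0.098 with DESeq2, -0.17 with voom, -0.14 without vehicle 1 and -0.14 without vehicle 1 and 5 together, and Eno1 was 0.045 without both, 0.0093 without vehicle 5 and 0.033 without palbociclib 4. Over all fits that left out 1 tumour, Ldha ranged from -0.14 to 0.14 and Eno1 from -0.21 to 0.033. DESeq2 called 5 tumour genes. The cause was not tested.

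With a ratio pseudocount of 3 the embryo differences were -0.80 for Pfkl to Pfkp and 1.30 for Ldhb to Ldha, and the tumour ones 1.34 for Pklr to Pkm and -0.10 for Eno3 to Eno1. With 1 library left out, the embryo ratios were -0.94 to -0.66 (Pfkl to Pfkp), 1.24 to 1.39 (Ldhb to Ldha) and -0.26 to 0.11 (Pklr to Pkm), and the tumour ratios 0.95 to 1.54 (Pklr to Pkm), -0.67 to 0.86 (Eno3 to Eno1), -0.44 to 0.039 (Pfkl to Pfkp), 0.92 to 1.78 (Slc2a2 to Slc2a1) and -1.47 to -0.58 (Ldhb to Ldha). Within the high-share set Slc2a2 to Slc2a1 was 0.0094, and within the low-share set Pklr to Pkm was 0.12.

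A replicate block in the tumours called 0 genes and 0 members in limma. Same-numbered tumours had deviations correlated at -0.32 to 0.002, and none matched its own number best. The labels do not say whether the numbers pair the samples, and these correlations cannot settle it.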
